A study of Homo sapiens with 12 samples.

Results

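Aminoacyl-tRNA synthetases are the enzymes that load each amino acid onto its own tRNA, the step that supplies the ribosome with building blocks. Human cells keep a cytosolic set and a mitochondrial set, encoded for the most part by separate nuclear genes, with the number 1 or 2 at the end of the symbol telling them apart. Several cytosolic enzymes sit together in a multi-synthetase complex, and many cytosolic synthetase genes are known targets of ATF4, the transcription factor that carries the amino acid and unfolded protein stress response.

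The 35 genes described here were taken by name, from a list drawn up with earlier results of these data known: 19 cytosolic and 16 mitochondrial synthetase genes, out of 20036 genes in the deposited table. Total RNA was sequenced from the human cell line MV-4-11, an acute myeloid leukaemia of myelomonocytic character that carries an internal tandem duplication of the FLT3 receptor kinase. The labels give bone marrow as its tissue and WT as the genotype of every library. The 4 groups of 3 libraries were HPA-12, crenolanib, HPA-12 and crenolanib together (the combination below), and DMSO, the solvent control. HPA-12, sold as (1R,3S)-HPA-12, is a ceramide analogue that inhibits the ceramide transfer protein CERT, and crenolanib inhibits FLT3. The series description gives 48 h for treatment with HPA-12, crenolanib and the combination, and gives neither a time for DMSO nor any dose. Every library comes from the same line, and no label says whether replicates were grown as separate cultures, so p-values measure library-to-library spread that may be only technical.

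Values are FPKM, fragments per kilobase of gene and scaled to library size, so levels of different genes can be set side by side. The depth estimated from the smallest values was 12.1 to 12.8 M reads per HPA-12 library, 10.1 to 10.2 with crenolanib, 4.40 to 5.07 with the combination, and 13.6 to 15.98 M reads with DMSO. The combination libraries stood apart. Their summed FPKM averaged 497316, against 244744 with HPA-12, 295884 with crenolanib and 258315 with DMSO. Transcripts of the 13 mitochondrially encoded protein genes made up 62.2% of their summed FPKM, against 21.6% with HPA-12, 36.0% with crenolanib and 19.8% with DMSO, and globin transcripts another 5.09%, against 1.41% with crenolanib and less in the other groups. The 8 erythroid markers summed to 206 to 214 FPKM with HPA-12 and 4131 to 4403 FPKM with crenolanib. Their sums were 25500 to 25780 FPKM with the combination and 73.8 to 81.6 FPKM with DMSO. Most of each sum was HBB, which averaged 197, 4026, 23848 and 70.0 FPKM in that order. Of the 8 markers, 6, 8, 8 and 3 reached a mean of 1 FPKM. Of 9 myeloid markers, 8 reached it in each group, with CD68 at 0 in the crenolanib and the combination libraries. Their sums were 628 to 635, 1046 to 1065, 723 to 764 and 1183 to 1201 FPKM in the same order. The 9 markers of other cell types summed to 66.5 to 68.9, 28.8 to 31.2, 6.61 to 40.7 and 16.8 to 17.6 FPKM in that order. In the combination libraries ALB was at 0, 19.9 and 1.58 FPKM and COL1A1 at 0, 6.81 and 0.145 FPKM. With DMSO, ALB and COL1A1 averaged 0.0214 and 0.0536 FPKM. Where these transcripts come from was not tested. Myeloid markers moved both ways with HPA-12, where MPO averaged 15.9 FPKM against 391 FPKM with DMSO and CSF1R 73.9 against 34.7 FPKM. FPKM is relative to the library total, so the counts and the main values of the combination are also given after median-ratio scaling. That scaling sets the libraries level by the typical gene among those above 0 in all 12 libraries. The combination libraries listed 7971 genes at 0 on average, against 5183 with DMSO. In these bulk libraries a change in the cells present and a change in RNA per cell cannot be told apart, and the part of the mitochondrial and erythroid transcripts in the results was not tested.

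Of the 35 members, 33 passed the filter of at least 1 FPKM in at least 3 libraries: 19 cytosolic genes and 14 mitochondrial ones. The exceptions were NARS2 and VARS2, the mitochondrial asparaginyl- and valyl-tRNA synthetases. NARS2 averaged 0.399 FPKM with HPA-12, 0.771 FPKM with crenolanib, 0.309 FPKM with the combination and 0.961 FPKM with DMSO. VARS2 was listed at 0 in the 3 combination libraries and below 0.2 FPKM in every other library. Among members with at least 2 FPKM in some group, the median coefficient of variation was 6.39% with HPA-12, 6.55% with crenolanib, 20.6% with the combination and 3.78% with DMSO. The spread within a group was thus widest in the combination libraries, where 5 of the 35 members were listed at 0 in at least 1 library.

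The summed level of the set was lower in all treated groups. The 19 cytosolic genes summed to 332 ± 4.99 FPKM with HPA-12, 381 ± 4.65 FPKM with crenolanib and 284 ± 10.9 FPKM with the combination, against 669 ± 19.9 FPKM with DMSO (SD, n = 3 each). For the 16 mitochondrial genes the sums were 83.4 ± 0.623 FPKM with HPA-12, 78.7 ± 0.807 FPKM with crenolanib and 45.2 ± 4.32 FPKM with the combination, against 139 ± 2.96 FPKM with DMSO. No treated library reached the lowest DMSO library in either sum. The ratio of the 2 sums does not depend on how a library is scaled. It was 3.98 ± 0.0520 with HPA-12, 4.85 ± 0.108 with crenolanib and 6.32 ± 0.517 in the combination, against 4.83 ± 0.218 with DMSO. The HPA-12 libraries lay below all DMSO libraries in this ratio and the combination libraries above them, while the crenolanib libraries lay within the DMSO range. The HPA-12 position rests on FARSA, the most abundant cytosolic member with DMSO. Without FARSA, a choice made after its values were seen, the ratio was 3.61 ± 0.0697 with HPA-12, 4.28 ± 0.119 with crenolanib and 5.76 ± 0.503 in the combination, against 3.66 ± 0.148 with DMSO, and the HPA-12 libraries overlapped DMSO while the crenolanib and combination libraries lay above it.

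**Figure D1:**
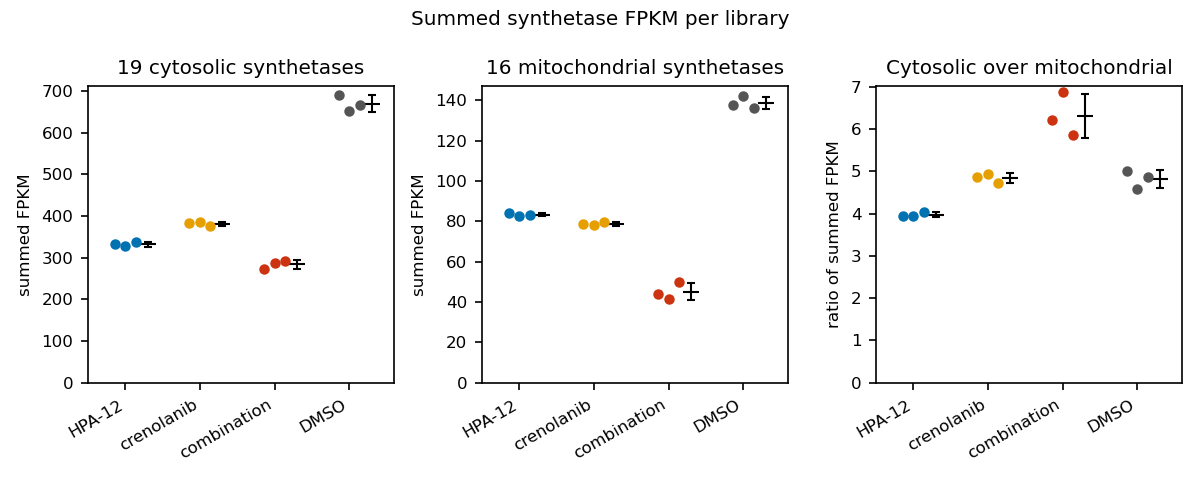
Summed FPKM of the 19 cytosolic (left) and 16 mitochondrial (middle) synthetase genes, and the ratio of the sums (right), for each library as a point, with the mean and SD of the 3 libraries of a group as a bar. Cytosolic sums are 332 FPKM with HPA-12, 381 FPKM with crenolanib and 284 FPKM with the combination, against 669 FPKM with DMSO, and the ratio is lowest with HPA-12 and highest with the combination.

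A few genes carried much of the cytosolic difference. FARSA, the catalytic alpha subunit of the cytosolic phenylalanyl-tRNA synthetase, accounted for 38.6% of the difference from DMSO with HPA-12, 40.4% with crenolanib and 35.4% in the combination. Without it the cytosolic sum was 59.2% of the DMSO level with HPA-12, 66.2% with crenolanib and 51.0% in the combination. FARSA, VARS1 (valine) and KARS1 (lysine) together made up 60.3% of the difference with HPA-12 and 61.5% with crenolanib.

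HPA-12 against DMSO asks how the synthetase genes differed with HPA-12 by itself, and inhibition of ceramide transport was not measured. Of the 19 cytosolic genes, 0 rose and 16 fell, and of the 14 mitochondrial genes tested 0 rose and 9 fell (limma on log2 of FPKM plus 1, adjusted p under 0.05). Across all 11149 genes tested, 27.7% rose and 23.0% fell. The median log2 fold change was -0.93 over the cytosolic genes and -0.69 over the mitochondrial genes, beside 0.09 over all genes tested. The mitochondrial count was 5 without HPA-12 library 1 or 2, or DMSO library 1 or 2. The counts of raised members were also 0 at an unadjusted p under 0.05, here, in combination vs DMSO, and for the mitochondrial genes in each other comparison of a pair of groups.

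VARS1, the cytosolic valyl-tRNA synthetase, had 5.06, 4.85 and 5.55 FPKM in the HPA-12 libraries, 9.87, 12.1 and 11.7 FPKM with crenolanib and 8.54, 6.94 and 11.9 FPKM with the combination, against 46.5, 45.2 and 45.5 FPKM with DMSO. Every treated library was far below the DMSO libraries, and the HPA-12 libraries were the lowest. The log2 fold change with HPA-12 was -2.93 ± 0.15 (SE; limma adjusted p = 3.8e-08), the largest fall of a member in that comparison. By level, VARS1 ranked 15 of 19 among the cytosolic genes with HPA-12, 11 with crenolanib and 13 in the combination, against 5 with DMSO.

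FARSA had 33.2, 30.3 and 29.5 FPKM with HPA-12, 47.5, 42.4 and 45.2 FPKM with crenolanib and 29.3, 22.7 and 22.95 FPKM with the combination, against 169.6, 154.8 and 159.8 FPKM with DMSO. It was the most abundant cytosolic synthetase transcript with DMSO and no treated library came near those levels. The fall with HPA-12 was -2.34 ± 0.10 (limma adjusted p = 5.95e-09). FARSB, the beta subunit of the same enzyme, had 1.42, 1.34 and 1.27 FPKM with HPA-12, 6.10, 5.18 and 4.96 FPKM with crenolanib and 5.11, 4.90 and 4.95 FPKM with the combination, against 10.3, 9.69 and 9.48 FPKM with DMSO. As deposited, HPA-12 was lowest, crenolanib and the combination overlapped in the middle and DMSO was highest. After median-ratio scaling FARSB in the combination was at 0.49 against crenolanib (limma adjusted p = 0.00391) and at -0.25 against DMSO (0.0699). FARSB fell by 2.21 on the log2 scale with HPA-12 (SE 0.11, limma adjusted p = 2.34e-08).

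The enzyme is built from equal numbers of both subunits, and their transcripts did not keep a constant ratio. FARSA over FARSB was 23.1 ± 0.403 with HPA-12, 8.35 ± 0.681 with crenolanib and 5.00 ± 0.638 in the combination, against 16.4 ± 0.443 with DMSO (SD, n = 3 each). The ratios of the 4 groups did not overlap. Since both values come from the same library, these ratios do not change with library scaling.

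MARS2, the mitochondrial methionyl-tRNA synthetase, had 3.61, 4.25 and 4.34 FPKM with HPA-12, 4.23, 3.95 and 5.06 FPKM with crenolanib and 3.90, 5.93 and 2.44 FPKM with the combination, against 14.01, 13.65 and 13.94 FPKM with DMSO. All treated libraries lay below DMSO and overlapped one another. The log2 fold change was -1.56 ± 0.21 with HPA-12, -1.46 ± 0.21 with crenolanib and -1.60 ± 0.21 in the combination (limma adjusted p from 2.29e-05 to 9.91e-05), and -1.02 in the combination after scaling.

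The remaining cytosolic genes that fell with HPA-12 ranged from -0.39 for MARS1 (methionine) to -1.45 for IARS1 (isoleucine). IARS1 had 2.33, 2.96 and 2.44 FPKM with HPA-12, 6.18, 5.95 and 5.60 FPKM with crenolanib and 6.26, 5.87 and 5.46 FPKM with the combination, against 8.39, 8.82 and 8.95 FPKM with DMSO. Its HPA-12 libraries stood well below the rest. LARS1 (leucine) fell by 1.11 and YARS1 (tyrosine) by 1.08 on the log2 scale. Not past the threshold were SARS1 (serine) at -0.32, QARS1 (glutamine) at 0.01 and CARS1 (cysteine) at 0.17. QARS1 was the most abundant cytosolic member with HPA-12, at 71.3 ± 4.30 FPKM against 70.9 ± 0.331 FPKM with DMSO. Of the mitochondrial genes, EARS2 (glutamate) at -1.37 and AARS2 (alanine) at -1.05 followed MARS2, and WARS2, SARS2, PARS2, RARS2 and HARS2 did not pass, with values between -0.49 and 0.30.

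**Figure D2:**
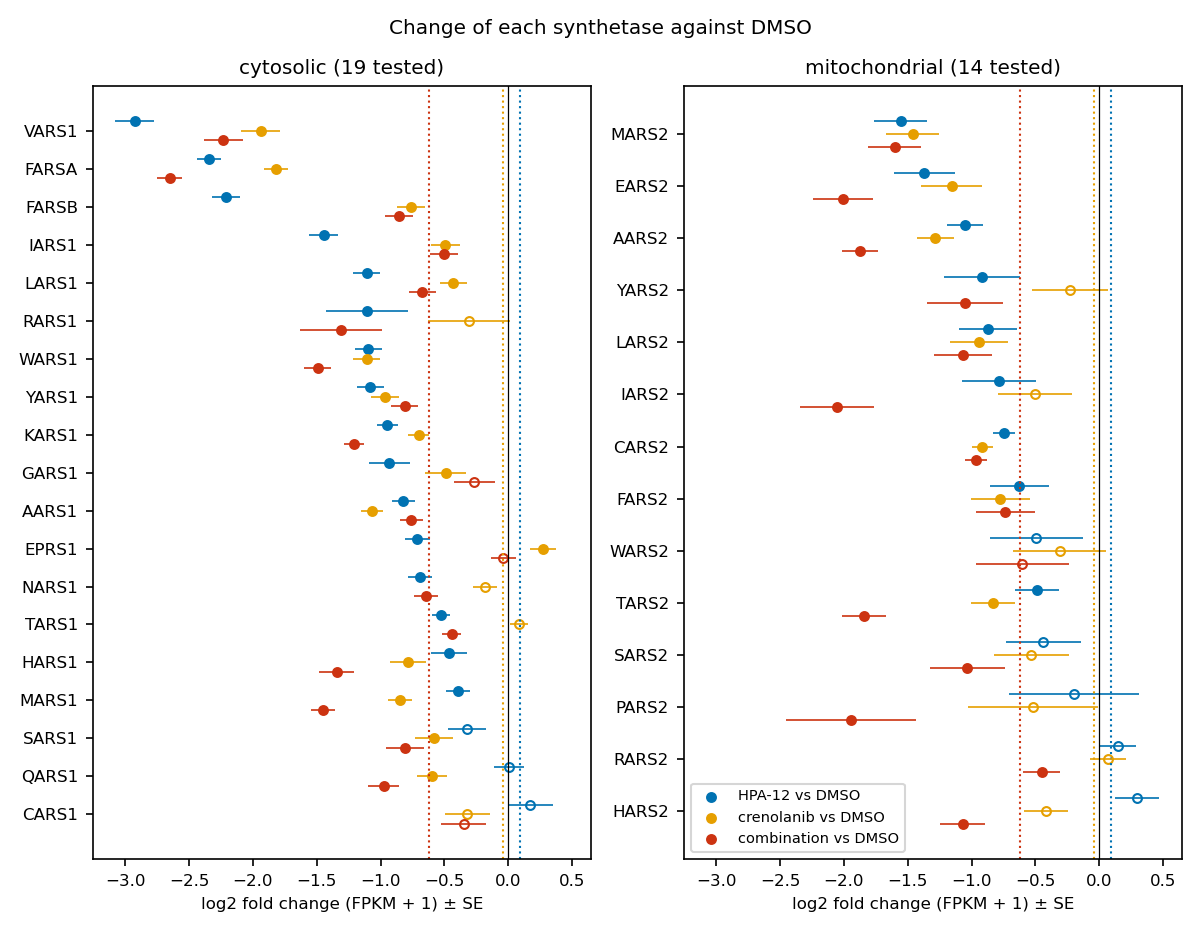
Log2 fold change against DMSO of each tested synthetase, cytosolic on the left and mitochondrial on the right, as a point with its SE for HPA-12 (blue), crenolanib (orange) and the combination (red); filled points passed at adjusted p under 0.05, and dotted lines mark the median of all genes tested in each comparison. VARS1, FARSA and FARSB lie furthest left with HPA-12, and the dotted line of the combination stands at -0.62.

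Crenolanib against DMSO asks the same of crenolanib by itself, and inhibition of FLT3 was not measured. Of the 19 cytosolic genes, 1 rose and 14 fell, and of the 14 mitochondrial genes 0 rose and 7 fell, where 27.4% of all genes tested rose and 28.9% fell. Median log2 fold changes were -0.60 over the cytosolic genes and -0.65 over the mitochondrial genes, beside -0.04 over all genes tested. The fit shares its spread with the combination libraries, which vary most, and without them the mitochondrial count was 12 instead of 7. Both single compounds are compared with the same DMSO libraries, so their fold changes are given side by side here and their likeness was not tested.

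VARS1 fell by 1.94 (SE 0.15) and FARSA by 1.82 (SE 0.10) on the log2 scale with crenolanib (limma adjusted p = 1.02e-06 and 3.96e-08), the largest falls here too. AARS2 had 5.68, 4.75 and 5.30 FPKM with HPA-12, 3.89, 3.85 and 5.33 FPKM with crenolanib and 2.12, 3.05 and 2.49 FPKM with the combination, against 11.5, 12.4 and 11.9 FPKM with DMSO. Its treated libraries were all below DMSO, with the combination lowest. The crenolanib fold change of AARS2 was -1.28 ± 0.14 (limma adjusted p = 1.51e-05). FARSB, which stood at -2.21 with HPA-12, was at -0.76 ± 0.11 with crenolanib. IARS1 and LARS1 had -0.49 and -0.43 with crenolanib, beside -1.45 and -1.11 with HPA-12.

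EPRS1, the glutamyl-prolyl-tRNA synthetase and a scaffold of the multi-synthetase complex, was the member that rose. It had 11.3, 12.9 and 11.5 FPKM with HPA-12, 24.2, 23.9 and 25.3 FPKM with crenolanib and 17.9, 22.9 and 18.2 FPKM with the combination, against 19.68, 20.03 and 20.62 FPKM with DMSO. The HPA-12 libraries were all below DMSO, the crenolanib libraries all above it, and the combination libraries overlapped it. Fold changes were -0.71 ± 0.10 with HPA-12 and 0.27 ± 0.10 with crenolanib (limma adjusted p = 0.000101 and 0.0361). The crenolanib call was lost without HPA-12 library 3 and without any 1 of the crenolanib or DMSO libraries, with adjusted p up to 0.102. Not past the threshold with crenolanib were CARS1, RARS1 (arginine), NARS1 (asparagine) and TARS1 (threonine) of the cytosolic set, at -0.32, -0.31, -0.18 and 0.08, and YARS2, WARS2, IARS2, SARS2, PARS2, HARS2 and RARS2 of the mitochondrial set.

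AARS1 (alanine) had 9.62, 9.49 and 9.24 FPKM with HPA-12, 7.69, 7.93 and 7.77 FPKM with crenolanib and 9.40, 9.41 and 11.0 FPKM with the combination, against 17.4, 17.6 and 17.4 FPKM with DMSO. All treated libraries were well below DMSO, and the fold changes were -0.82 ± 0.09 with HPA-12 and -1.07 ± 0.09 with crenolanib. WARS1, the tryptophanyl-tRNA synthetase and a known interferon-induced gene, had 19.4, 18.3 and 19.2 FPKM with HPA-12, 18.6, 17.4 and 20.7 FPKM with crenolanib and 11.98, 16.29 and 14.60 FPKM with the combination, against 42.4, 40.7 and 42.1 FPKM with DMSO. Every treated library lay below DMSO. WARS1 fell by 1.10 with HPA-12 and by 1.11 with crenolanib on the log2 scale (SE 0.11 each, limma adjusted p = 5.24e-06 and 4.47e-06). In the same libraries 8 of 10 tested interferon-stimulated genes rose with HPA-12 and 7 of 10 with crenolanib, and 0 fell in either. Of all genes tested, 27.7% rose and 23.0% fell with HPA-12, and 27.4% rose and 28.9% fell with crenolanib. The interferon-stimulated genes that rose included IFIT2 at 2.16 and 1.85 and, with HPA-12, STAT2 at 1.91.

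GARS1, which supplies glycyl-tRNA synthetase to both cytosol and mitochondria, had 3.10, 2.76 and 2.99 FPKM with HPA-12, 4.22, 4.47 and 4.39 FPKM with crenolanib and 6.86, 5.44 and 3.83 FPKM with the combination, against 7.12, 6.57 and 5.93 FPKM with DMSO. The libraries of both single compounds were below DMSO and those of the combination overlapped it. Fold changes were -0.93 ± 0.16 with HPA-12 and -0.49 ± 0.16 with crenolanib, and the crenolanib call was lost under upper-quartile scaling (-0.40, limma adjusted p = 0.0554), without mitochondrially encoded genes (-0.38, 0.0634), and without crenolanib library 1 or 3 or DMSO library 1 or 2 (adjusted p up to 0.0806). CARS1 had 7.17, 7.61 and 7.68 FPKM with HPA-12, 4.70, 4.80 and 5.59 FPKM with crenolanib and 6.39, 3.24 and 5.57 FPKM with the combination, against 6.55, 6.27 and 6.76 FPKM with DMSO. Its HPA-12 libraries were above DMSO, its crenolanib libraries below, and its combination libraries overlapped DMSO. CARS1 passed in none of these comparisons (limma adjusted p = 0.44, 0.14 and 0.0938). The HPA-12 value of 0.17 passed as raised with only the groups of the comparison in the fit (0.0333) and with group-specific spread (0.0368), and the combination value passed without combination library 1 (-0.51, 0.0141). Without the combination libraries the crenolanib value of -0.32 passed with adjusted p = 0.00288.

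LARS2, the mitochondrial leucyl-tRNA synthetase, had 2.39, 2.02 and 2.40 FPKM with HPA-12, 2.09, 2.19 and 2.07 FPKM with crenolanib and 1.39, 3.51 and 1.14 FPKM with the combination, against 5.16, 5.09 and 4.68 FPKM with DMSO. No treated library reached DMSO. LARS2 fell by 0.87 with HPA-12 and by 0.94 with crenolanib on the log2 scale (SE 0.23 each, limma adjusted p = 0.00739 and 0.00419).

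**Figure D3:**
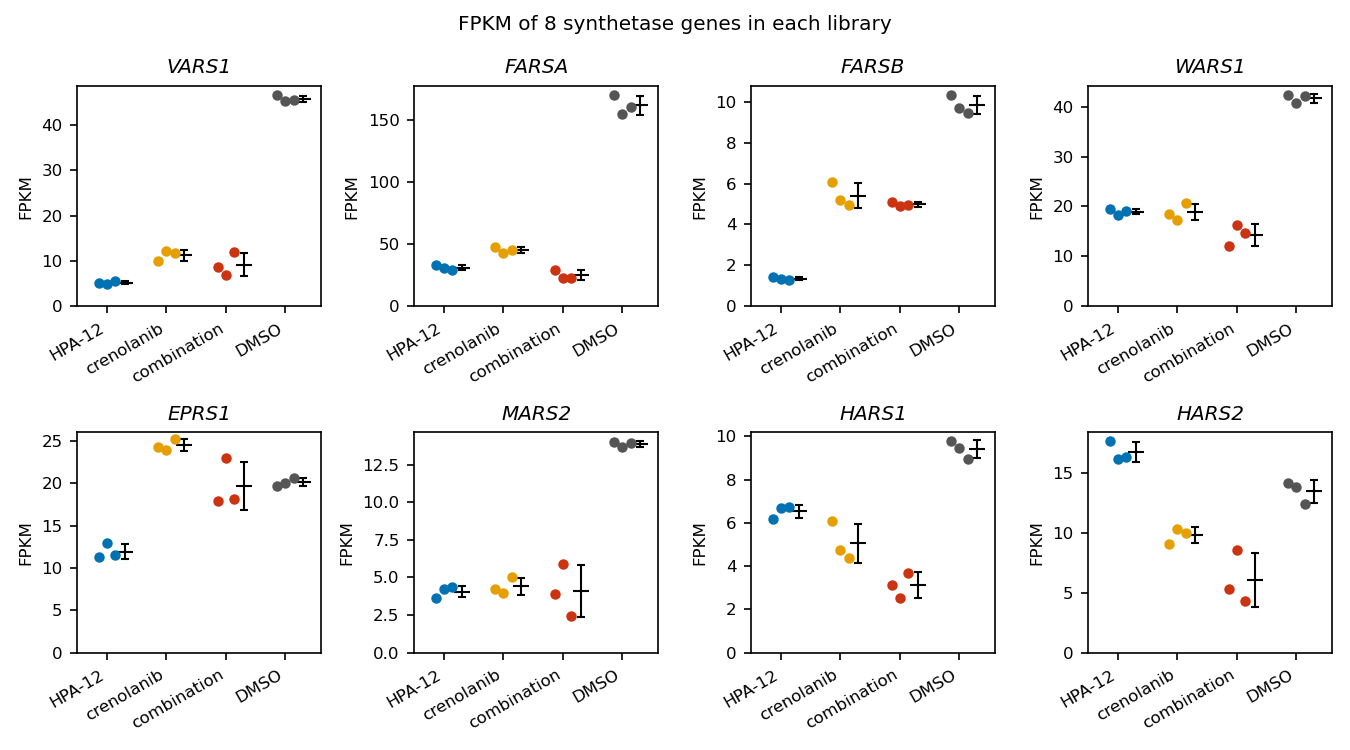
FPKM of 8 synthetase genes in each library as points, with the mean and SD of each group beside them; groups run from HPA-12, crenolanib and the combination to DMSO, and each panel has its own axis starting at 0. VARS1 sits between 4.85 and 12.1 FPKM in treated libraries, EPRS1 is above DMSO with crenolanib, and HARS2 is above DMSO with HPA-12 while HARS1 is below it.

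HARS1 and HARS2, the cytosolic and mitochondrial histidyl-tRNA synthetases, are neighbours transcribed in opposite directions. In the RefSeq annotation of GRCh38.p14 their starts lie 85 bases apart on chromosome 5. The 86 bases from the HARS1 start to the HARS2 start, chr5:140691370-140691455, are shown on the plus strand because both genes are transcribed outward from them. Capitals mark the base at which each transcript begins, HARS1 at the left end on the opposite strand and HARS2 at the right end.
HARS1 to HARS2: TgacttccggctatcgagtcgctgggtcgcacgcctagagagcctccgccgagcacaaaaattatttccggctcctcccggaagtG

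HARS1 had 6.19, 6.69 and 6.73 FPKM with HPA-12, 6.08, 4.76 and 4.36 FPKM with crenolanib and 3.15, 2.52 and 3.70 FPKM with the combination, against 9.77, 9.47 and 8.95 FPKM with DMSO. HARS2 had 17.7, 16.1 and 16.3 FPKM with HPA-12, 9.08, 10.3 and 10.0 FPKM with crenolanib and 5.32, 8.59 and 4.33 FPKM with the combination, against 14.1, 13.8 and 12.4 FPKM with DMSO. With HPA-12 every library was below DMSO for HARS1 and above it for HARS2, while every crenolanib or combination library was below DMSO for both genes. HARS1 fell by 0.46 with HPA-12 and by 0.79 with crenolanib on the log2 scale (SE 0.14 each, limma adjusted p = 0.0155 and 0.000523). HARS2 was at 0.30 ± 0.17 with HPA-12 and -0.42 ± 0.17 with crenolanib (limma adjusted p = 0.181 and 0.0603). Without the combination libraries in the fit both HARS2 values passed, with adjusted p = 0.00293 and 0.0002. The HARS1 call with HPA-12 was lost without HPA-12 library 1 (limma adjusted p = 0.0533) and without DMSO library 1 (0.0566). The log2 ratio of HARS1 over HARS2 within a library averaged -1.35 with HPA-12, -0.97 with crenolanib and -0.92 in the combination, against -0.51 with DMSO. The combination libraries ranged from -1.77 to -0.22 in this ratio and overlapped DMSO, while those of both single compounds lay below it.

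Setting each cytosolic gene over its mitochondrial counterpart within a library gave 17 pairs, of which 12 had values above 0 throughout. Against DMSO, the ratio was higher in every library of 4 pairs, lower in 5 and overlapping in 3 with HPA-12. With crenolanib it was higher in 5, lower in 4 and overlapping in 3, and with the combination higher in 5, lower in 1 and overlapping in 6. The median shift over the 12 pairs was -0.09 with HPA-12, 0.23 with crenolanib and 0.56 in the combination, on the log2 scale. These counts describe the pairs, and no background share for pairs was computed. For glutamate, EPRS1 over EARS2 averaged 1.91 with HPA-12, 2.67 with crenolanib and 3.63 in the combination, against 1.04 with DMSO. For methionine, MARS1 over MARS2 averaged 2.45 with HPA-12, 1.86 with crenolanib and 1.40 in the combination, against 1.09 with DMSO, with combination libraries overlapping DMSO. For phenylalanine, FARSA over FARS2 averaged 3.42 with HPA-12, 4.18 with crenolanib and 3.28 in the combination, against 5.01 with DMSO. With the other subunit, FARSB over FARS2 averaged -1.11 with HPA-12, 1.12 with crenolanib and 0.96 in the combination, against 0.97 with DMSO, and the crenolanib and combination libraries overlapped DMSO.

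Grouped by what the enzymes are known for, the cytosolic genes showed falls in each group. Of the 7 synthetases of the multi-synthetase complex (EPRS1, IARS1, LARS1, MARS1, QARS1, RARS1 and KARS1), 0 rose and 6 fell with HPA-12, and 1 rose and 5 fell with crenolanib. Of the 12 outside it, 10 fell with HPA-12 and 9 with crenolanib, with 0 raised in either. Class I and class II enzymes, which differ in the fold of the catalytic domain, had 8 of 10 and 8 of 9 members lowered with HPA-12, and 7 of 10 and 7 of 9 with crenolanib. The list of partners of charging holds scaffolds, enzymes and TARS3, a synthetase gene outside the 35 members. Among these partners AIMP2, a scaffold of the complex, fell by 2.28 with HPA-12 and by 1.58 with crenolanib on the log2 scale (SE 0.14 each). SEPSECS, which makes selenocysteinyl-tRNA from a seryl precursor, rose by 1.05 and 0.84. In all, 1 of 10 tested partners rose and 2 fell with HPA-12, and 2 rose and 2 fell with crenolanib, at or below the shares of all genes (27.7% raised and 23.0% lowered with HPA-12, 27.4% and 28.9% with crenolanib).

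The 11 cytosolic members known as ATF4 targets, chiefly from work on amino acid and endoplasmic reticulum stress, were counted apart from the other 8. With HPA-12, 0 of the 11 rose and 9 fell, with a median log2 fold change of -0.71, and of the other 8, 7 fell with a median of -1.11. With crenolanib 1 of the 11 rose and 7 fell (median -0.49), and of the other 8, 7 fell (median -0.73). ATF4 itself had 162.6, 160.6 and 159.98 FPKM with HPA-12, 146.9, 135.3 and 139.9 FPKM with crenolanib and 156.8, 141.6 and 114.6 FPKM with the combination, against 86.7, 86.3 and 89.3 FPKM with DMSO. All treated libraries were above DMSO, and ATF4 mRNA rose by 0.87 with HPA-12, 0.68 with crenolanib and 0.64 in the combination on the log2 scale (SE 0.09 each, limma adjusted p from 9.23e-06 to 5.99e-05), and by 1.33 in the combination after scaling. ATF4 is controlled mainly at translation, and its protein was not measured here. Of 10 tested genes of the amino acid response, 3 rose and 2 fell with each single compound, close to the shares of all genes (27.7% raised and 23.0% lowered with HPA-12, 27.4% and 28.9% with crenolanib). PPP1R15A, the phosphatase subunit that reverses eIF2-alpha phosphorylation, rose by 0.87 with HPA-12 and 1.74 with crenolanib. DDIT4, of the same list, rose by 0.73 with HPA-12 and 0.96 with crenolanib. TRIB3, an inhibitor of ATF4 chosen after its values were seen, fell by 1.76 with HPA-12 and by 1.42 with crenolanib on the log2 scale.

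MYC, a transcription factor that drives many genes of protein synthesis, had 6.616, 7.003 and 7.031 FPKM with HPA-12, 38.5, 33.7 and 32.3 FPKM with crenolanib and 17.5, 17.7 and 18.1 FPKM with the combination, against 159.8, 157.9 and 154.98 FPKM with DMSO. The 4 groups did not overlap, and HPA-12 was lowest. MYC fell by 4.33 with HPA-12, 2.15 with crenolanib and 3.08 in the combination on the log2 scale (SE 0.08 each), and by 2.41 in the combination after scaling.

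Sequences near the gene starts were searched for the elements these factors are known to bind. RefSeq windows of GRCh38.p14, from 250 bases before to 50 bases after a start, were on hand for 30 of the 35 members. The element of ATF4 and C/EBP proteins, searched as TGATGNAA on both strands, was in the windows of 7 of 16 cytosolic members (43.8%) and 1 of 14 mitochondrial members (7.14%), against 558 of 15342 genes of the table with a window (3.64%). The E-box CACGTG, the MYC and MAX element, was in 1 of 16 cytosolic members (6.25%) and 3 of 14 mitochondrial members (21.4%), against 1680 of 15342 genes (11%). No window held overlapping matches of both, and a match is a string in a window, not a measured binding site. The 8 matches to the first element are shown with the bases around them, 30 each on the gene's own strand, with the match in capitals.
AARS1: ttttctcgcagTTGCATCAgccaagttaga
CARS1: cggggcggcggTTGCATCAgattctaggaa
GARS1: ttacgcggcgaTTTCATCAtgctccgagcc
IARS1: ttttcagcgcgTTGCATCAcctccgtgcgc
MARS1: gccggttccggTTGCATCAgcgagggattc
NARS1: tctacgctctcTGATGCAAcgccggaatcg
TARS1: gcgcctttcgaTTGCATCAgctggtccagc
YARS2: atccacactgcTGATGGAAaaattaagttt

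These stretches lie at chr16:70289675-70289704 (AARS1, minus strand), chr11:3057407-3057436 (CARS1, minus), chr7:30594834-30594863 (GARS1, plus) and chr9:92293692-92293721 (IARS1, minus). The others are at chr12:57488053-57488082 (MARS1, plus), chr18:57621804-57621833 (NARS1, minus), chr5:33440956-33440985 (TARS1, plus) and chr12:32756076-32756105 (YARS2, minus). In 6 of the 7 cytosolic genes the match reads TTGCATCA or its reverse complement. The match begins 2 to 33 bases from the start in 6 of the cytosolic genes and 187 bases before it in AARS1. Of these 7 cytosolic genes, AARS1, GARS1, IARS1, MARS1, NARS1 and TARS1 fell with HPA-12, and AARS1, GARS1, IARS1 and MARS1 fell with crenolanib. Of all 19 cytosolic genes, with or without a match, 16 fell with HPA-12 and 14 with crenolanib. Of all genes tested, 23.0% fell with HPA-12 and 28.9% with crenolanib. The members with an E-box were IARS1, CARS2, EARS2 and MARS2, which fell with HPA-12 (-1.45, -0.75, -1.37 and -1.56) and with crenolanib (-0.49, -0.92, -1.16 and -1.46). Of the 14 mitochondrial genes tested, 9 fell with HPA-12 and 7 with crenolanib. A link between either match and a fall was not tested.

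Beyond charging, 15 genes that finish the ends of tRNAs were tested: 0 rose and 9 fell with HPA-12, and 1 rose and 6 fell with crenolanib. All genes tested had 23.0% lowered with HPA-12 and 28.9% with crenolanib, and after median-ratio scaling the lowered counts were 8 and 5. POP1, a protein of the RNase P and RNase MRP particles, was at -1.74 with HPA-12 and -1.30 with crenolanib. Of 5 tested factors linked to the delivery of charged tRNA to the ribosome, 2 rose and 1 fell with HPA-12, and 2 rose and 2 fell with crenolanib. Of all genes, 27.7% rose and 23.0% fell with HPA-12, and 27.4% rose and 28.9% fell with crenolanib. EEF1A1, the cytosolic elongation factor, was at 0.33 with HPA-12 and 0.28 with crenolanib, whereas TUFM, its mitochondrial counterpart, was at -1.16 and -1.27. EEF1G, which most cells express, was listed at 0 in every library, so a value of 0 in this table need not mean absence.

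The combination against DMSO lowered 16 of 19 cytosolic genes and 13 of 14 mitochondrial genes, and raised 0. These counts stand against 14.8% of all genes raised and 56.5% lowered, since the median of all genes was -0.62 as deposited. Member medians were -0.81 (cytosolic) and -1.07 (mitochondrial). After median-ratio scaling, where the median of all genes was -0.12, 2 cytosolic genes rose and 6 fell with a median of -0.17, and 0 mitochondrial genes rose and 8 fell with a median of -0.69. Of all genes, 27.2% then rose and 33.8% fell, so the cytosolic count of 6 lowered was close to that of genes in general.

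FARSA and VARS1 remained the most lowered cytosolic genes: FARSA was at -2.65 ± 0.10 as deposited and -1.98 after scaling, and VARS1 at -2.23 ± 0.15 and -1.59. IARS2, the mitochondrial isoleucyl-tRNA synthetase, had 17.0, 18.9 and 17.6 FPKM with HPA-12, 24.1, 22.4 and 19.3 FPKM with crenolanib and 4.62, 4.72 and 13.8 FPKM with the combination, against 31.0, 32.0 and 31.2 FPKM with DMSO. All combination libraries were below every other library, and 1 of them was well above the other 2. IARS2 was at -2.05 ± 0.29 as deposited (limma adjusted p = 4.82e-05) and at -1.43 after scaling. EARS2 had 3.21, 3.38 and 2.93 FPKM with HPA-12, 3.63, 4.08 and 3.81 FPKM with crenolanib and 3.15, 1.61 and 0.777 FPKM with the combination, against 9.98, 10.4 and 9.04 FPKM with DMSO. Treated libraries were all below DMSO, and EARS2 was at -2.01 ± 0.24 as deposited (limma adjusted p = 1.1e-05) and -1.51 after scaling.

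WARS1 at -1.49, HARS1 at -1.34 and HARS2 at -1.07 fell as deposited; after scaling they passed at -0.83, -0.78 and -0.46 (HARS2 limma adjusted p = 0.0497). AARS1 was at -0.76 as deposited and at -0.11 after scaling (limma adjusted p = 0.29), and LARS2 at -1.07 and -0.57 (0.0669 after scaling). The 2 cytosolic genes that rose after scaling were EPRS1, at 0.63 where it was -0.04 as deposited, and TARS1, at 0.24 where it was -0.44. Both are direction changes between scalings. In all 3 comparisons with DMSO as deposited, the same 18 members were lowered, 11 cytosolic and 7 mitochondrial: VARS1, FARSA, FARSB, IARS1, LARS1, WARS1, YARS1, KARS1, AARS1, HARS1 and MARS1, and MARS2, EARS2, AARS2, LARS2, CARS2, FARS2 and TARS2. Of all genes tested, 15.7% were lowered in all 3. After median-ratio scaling 11 members were, 6 cytosolic and 5 mitochondrial, beside 11.9% of all genes; FARSB, IARS1, LARS1, YARS1, AARS1, LARS2 and FARS2 were no longer among them. The comparisons share the DMSO libraries, so this count is not independent support for any of them.

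Combination against crenolanib asks what adding HPA-12 to crenolanib changed. As deposited, 1 of 19 cytosolic genes rose and 10 fell, and 0 of 14 mitochondrial genes rose and 8 fell, beside 8.78% of all genes raised and 61.2% lowered. After median-ratio scaling 9 cytosolic genes rose and 0 fell, and 1 mitochondrial gene rose and 1 fell, beside 19.6% of all genes raised and 26.3% lowered. AARS1 was at 0.31 ± 0.09 as deposited, its 3 combination libraries above the crenolanib libraries, and at 0.94 after scaling. The deposited call was lost with only the groups of the comparison in the fit (limma adjusted p = 0.0916) and with group-specific spread (0.106). EPRS1 changed direction, with -0.31 as deposited and 0.35 after scaling. IARS2 fell under both, by 1.55 (SE 0.29) and by 0.93 on the log2 scale. PARS2, the mitochondrial prolyl-tRNA synthetase, had 0, 0 and 4.52 FPKM with the combination and 5.05, 5.32 and 4.45 FPKM with HPA-12, against 3.84, 2.87 and 4.73 FPKM with crenolanib, and 5.95, 5.79 and 5.69 FPKM with DMSO. The third combination library was thus among the values of the other treated groups, and at these levels its estimated reads numbered 48.8. PARS2 was at -1.43 ± 0.51 (limma adjusted p = 0.0254), a call lost without either of the combination libraries at 0 (adjusted p up to 0.0992), without crenolanib library 1 or 3 (up to 0.0783) and after scaling (0.141).

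Combination against HPA-12 asks what adding crenolanib to HPA-12 changed. As deposited, 7 of 19 cytosolic genes rose and 8 fell, and 0 of 14 mitochondrial genes rose and 8 fell, beside 14.5% of all genes raised and 57.8% lowered. The medians were 0.05 over the cytosolic genes and -0.60 over the mitochondrial genes, where the median of all genes was -0.64. After scaling 13 cytosolic genes rose and 1 fell (median 0.72), and 2 mitochondrial genes rose and 2 fell (median -0.17), with -0.11 over all genes, of which 27.5% rose and 33.3% fell. FARSB rose by 1.35 (SE 0.11) and IARS1 by 0.94 (SE 0.11) on the log2 scale as deposited, and by 1.91 and 1.54 after scaling. VARS1, EPRS1, GARS1, LARS1 and YARS1 rose as well, between 0.27 and 0.69 as deposited. MARS1 fell under both, at -1.06 and -0.38, while WARS1, FARSA and KARS1 were lowered as deposited (-0.40, -0.31 and -0.26) and raised after scaling (0.29, 0.39 and 0.44). HARS2 fell by 1.37 (SE 0.17) as deposited and by 0.72 after scaling, with every combination library below every HPA-12 library. PARS2 was at -1.75 ± 0.51 as deposited and at -1.42 after scaling, where it no longer passed (limma adjusted p = 0.0583).

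**Figure D4:**
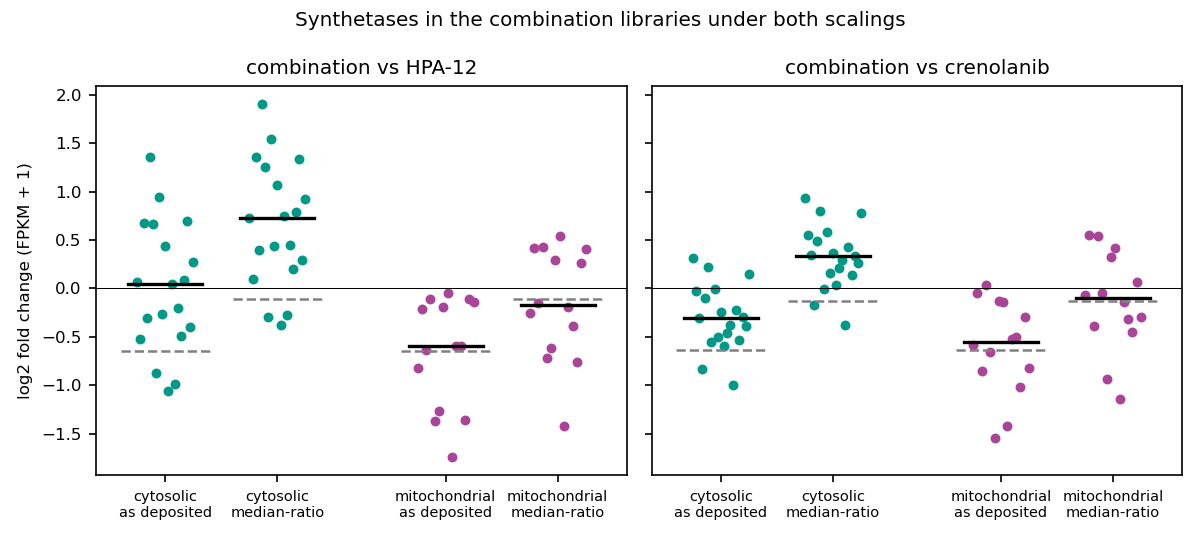
Log2 fold change of each tested synthetase (points, spread sideways only for display) in combination vs HPA-12 (left) and combination vs crenolanib (right), as deposited and after median-ratio scaling; black lines are the medians of the 19 cytosolic or 14 mitochondrial genes and dashed grey lines the medians of all genes tested. Against HPA-12 the cytosolic median is 0.05 as deposited and 0.72 after scaling, above the grey line both times, while the mitochondrial median lies close to it.

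The interaction, the change from adding HPA-12 to crenolanib minus the change from HPA-12 by itself, tests whether the compounds added up on the log2 scale. A positive value means that the change from HPA-12 was more positive, a smaller fall or a rise, on top of crenolanib than by itself. As deposited, 11 of 19 cytosolic genes had a positive interaction past the threshold and 0 a negative one (1 at an unadjusted p under 0.05, QARS1 at -0.38), and of the 14 mitochondrial genes 2 were positive and 2 negative, beside 15.4% of all genes positive and 50.0% negative. The median over the cytosolic genes was 0.44 and over the mitochondrial genes 0.15, with -0.65 over all genes. After scaling the counts were 15 and 0 of 19, and 6 and 0 of 14, with medians of 1.13 and 0.59 beside -0.13 over all genes, of which 25.4% were positive and 29.5% negative.

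VARS1 had the largest value, 2.63 ± 0.22 (limma adjusted p = 9.75e-07), and FARSB the next, 2.11 ± 0.16 (4.06e-07); after scaling they were at 3.25 and 2.65. For VARS1 the separate falls were 2.93 with HPA-12 and 1.94 with crenolanib while the fall with the combination was 2.23 on the log2 scale, so the combination was not lower than HPA-12 by itself. MYC had the same sign, with an interaction of 3.40 ± 0.11 as deposited and 4.06 after scaling. The negative values were HARS2 at -0.95 ± 0.25 and RARS2 at -0.66 ± 0.20 (limma adjusted p = 0.0052 and 0.013). RARS2, the mitochondrial arginyl-tRNA synthetase, had 1.70, 1.91 and 2.21 FPKM with HPA-12, 1.76, 1.99 and 1.61 FPKM with crenolanib and 0.915, 1.28 and 0.678 FPKM with the combination, against 1.77, 1.57 and 1.63 FPKM with DMSO. Its combination libraries were below all others and the other groups overlapped. After scaling both negative values missed the threshold, at -0.32 (0.323) and -0.26 (0.336).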

How the data were processed

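RNA-seq of 12 MV-4-11 libraries was used in 4 groups of 3, grouped by their titles. The authors deposited FPKM, a column for each library per the file headers; for alignment, counting, build and annotation, tools and versions were not given in the sources used here. Columns were matched to libraries by name. Symbols were found for 20011 genes. The 11149 genes that reached 1 FPKM in 3 or more libraries were fitted as log2 of FPKM plus 1 with limma 3.58.1 (R 4.3.3, statmod 1.5.0), with trend and robust moderation, all groups sharing a spread, and two-sided p-values adjusted by Benjamini-Hochberg over all genes tested at a threshold of 0.05. The pseudocount of 1 means that fold changes are those of FPKM plus 1, which understates changes of low genes. Simulated data without a general shift between groups were used to test the script, so the shift in the combination libraries was not covered.

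Read counts were not used. Depth was estimated from low values that became whole reads with GENCODE release 29 lengths (30.7% to 39.6% of them within 0.01 read), so no counting interval is given. No pair of libraries held the same values.

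Members and gene lists were chosen with earlier results of these data known. Genes given by library are, by rule, the 4 most raised and lowered members that passed in each comparison with DMSO. In the other comparisons they are the 2 most raised and lowered. AARS1, CARS1, EPRS1, GARS1, HARS1, HARS2, WARS1 and LARS2 were also given, beside ATF4 and MYC. List examples come from the 2 with the smallest p for each single compound against DMSO, and not all of those are named. TRIB3 and EEF1G were chosen after their values were seen. Alternatives were other scalings, pseudocounts, filters, library sets, spread models and a replicate block. Promoter windows are from RefSeq.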

Additional observations from a re-analysis of the deposited data

Results flagged for a closer look

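Some effects differed between the backgrounds in which HPA-12 was given, by the test of the difference itself (the interaction, HPA-12 on crenolanib minus HPA-12 by itself, limma). It passed for 11 cytosolic and 4 mitochondrial synthetases, where 15.4% of all genes passed as positive and 50.0% as negative. Among them, VARS1 was at 2.63 and FARSB at 2.11, and on the negative side HARS2 was at -0.949 and RARS2 at -0.662, on the log2 scale. After median-ratio scaling HARS2 and RARS2 no longer passed (limma adjusted p = 0.323 and 0.336). The combination libraries, with 62.2% of FPKM in mitochondrially encoded genes, enter each of these values, and the part of that share was not tested.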

How the results depend on the processing

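Over 47 combinations of a named synthetase and a comparison, 957 of 1005 alternative values stayed on the same side of the threshold. Where the main value had passed, these also kept its direction, and for the others the direction was not checked. Settings that left out a library from outside the comparison could change the p-value and not the fold change. The combination libraries are the shallowest and most variable, and they limit every comparison that uses them and, through the shared spread, the others. Where a setting with all libraries changed a value, the cause was not tested. EPRS1 in combination vs DMSO turned positive, to 0.63 with median-ratio scaling and 0.35 with upper-quartile scaling. Mitochondrial synthetases called in crenolanib vs DMSO numbered 7, and 11 with the groups of the comparison only, 11 with group-specific spread, 12 without the combination libraries and 6 to 11 with 1 library left out. In HPA-12 vs DMSO the 9 became 5 to 11 with 1 library left out (5 without HPA-12 library 1 or 2, or DMSO library 1 or 2). In combination vs DMSO, 16 cytosolic and 13 mitochondrial calls became 8 and 8 under median-ratio scaling. In combination vs crenolanib, 11 cytosolic calls became 7 (upper-quartile), 5 (groups of the comparison only) and 7 (group-specific spread), and 8 mitochondrial calls became 2 (median-ratio), 4 (upper-quartile) and 4 (groups only). In combination vs HPA-12, 8 mitochondrial calls became 4 under median-ratio scaling, and in the interaction 4 became 8 with group-specific spread and 4 to 8 with 1 library left out (8, 7 and 8 without combination library 1, 2 or 3). The log2 ratio of the cytosolic sum to DMSO was -1.01 with HPA-12, -0.81 with crenolanib and -1.24 in the combination; it was -0.95, -0.71 and -0.83 under upper-quartile scaling, -0.90, -0.68 and -1.10 without mitochondrially encoded genes, and for the combination -0.54 under median-ratio scaling. The mitochondrial sum was at -0.73, -0.82 and -1.62, with -0.68, -0.72 and -1.21 under upper-quartile scaling, -0.62, -0.69 and -1.48 without mitochondrially encoded genes, and -0.92 for the combination under median-ratio scaling. Of all genes called in combination vs DMSO, 20.8% were raised as deposited, 44.6% with median-ratio and 32.6% with upper-quartile scaling. In combination vs crenolanib these were 12.5%, 42.8% and 22.1%, in combination vs HPA-12 20.1%, 45.2% and 30%, and in the interaction 23.6%, 46.3% and 30%. Without mitochondrially encoded genes the shares were 24.2%, 12.8%, 20.8% and 21.2% in that order. The median of all genes in combination vs DMSO was then -0.52, beside -0.62 as deposited. Of 18 same-numbered pairs, 0 correlated over 0.1 (from -0.0295 to 0.068) and 10 correlated best with their own number among the 3 candidates. These low correlations do not settle whether the library numbers pair the samples. With a replicate block the counts were the same, other than 14 cytosolic and 7 mitochondrial calls in combination vs HPA-12 and 5 mitochondrial calls in the interaction.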
